A study of Homo sapiens with 6 samples.

Results

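Angiopoietins and vascular endothelial growth factors are secreted proteins that tumour cells and endothelial cells use to direct blood and lymph vessel growth. The rule named 5 of these genes, ANGPT2, VEGFA, VEGFB, VEGFC and ANGPTL4, and took their rows from the deposited table of log2 FPKM, a fragment density normalised to transcript length and to library depth. Of the 13117 genes in the table, 4 were members with values: ANGPT2, VEGFA, VEGFB and ANGPTL4. VEGFC was not analysed here. The members were named with the difference between the groups in view, so for them that difference is a description and carries no test.

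The data came from the established line SNU449, grown from a human hepatocellular carcinoma and labelled WT in genotype. Both groups carried pInducer20-FOXO1AAA, a doxycycline-inducible vector for a FOXO1 transcription factor that lacks the sites AKT phosphorylates. The Dox group (3 libraries) received 2 µM doxycycline hydrochloride for 48 h, and the Cont group (3 libraries) did not. The comparison asked how transcript levels differed when FOXO1AAA was induced. No library with doxycycline and without the construct was analysed here, so effects of the drug and of FOXO1AAA cannot be told apart, and the labels do not say whether the line was 1 clone or whether libraries came from separate cultures.

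VEGFA is the main growth factor of blood vessels and acts on endothelial cells through the receptors FLT1 (VEGFR1) and KDR (VEGFR2), with neuropilins as co-receptors. VEGFB binds FLT1 and neuropilin 1 and has little vessel-forming activity of its own in most tissues. ANGPT2 is a ligand of the endothelial receptor TEK (TIE2), where it mostly opposes ANGPT1. ANGPT2 is a known FOXO1 target in endothelial cells, in which it loosens vessels and makes them responsive to VEGFA. ANGPTL4 is a related secreted protein that inhibits lipoprotein lipase, is induced by fasting, by PPAR receptors and by hypoxia, and has been given both pro- and anti-angiogenic roles.

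The libraries summed to FPKM 600220 to 605788 in Dox and 636807 to 667582 in Cont over the listed genes. Mitochondrially encoded transcripts took 13.2% to 14.7% of that sum in Dox and 3% to 4.67% in Cont. FOXO1 itself averaged 2.79 ± 0.748 FPKM in Dox and 0.802 ± 0.0777 in Cont (SD, n = 3 each), and whether reads of the construct count towards it cannot be told from the table. Few markers could be set beside the liver origin of the line: 6 of 12 liver cell markers were listed. Albumin (ALB) was at FPKM 0.85 to 1.71 in Dox and 0.0941 to 0.571 in Cont. All 4 tested liver markers fell, among them the fibrinogen chain genes FGB and FGG (log2 difference -4.16, SE 0.165, and -1.69, SE 0.0836). Without Dox replicate 3 the number that fell was 3. FGA passed the filter on low values through its Cont libraries alone and so had to differ. AFP overlapped between the groups, at 5.35, 8.62 and 4.65 FPKM in Dox and 17.1, 15.7 and 7.34 in Cont. Of all 11526 tested genes, 42.8% fell and 37.6% rose at a limma adjusted p under 0.05. Of 12 endothelial markers, 3 were listed and 0 passed the filter on low values, with a summed FPKM of 0.855 to 1.53 in Dox and 0.722 to 1.97 in Cont. Within these, PECAM1 was at 0.862, 0.92 and 0.444 FPKM in Dox and 0.101, 0.118 and 0.19 in Cont. The other listed markers were lower on average in Dox, with overlap of ESAM between the groups: CDH5 averaged 0.0729 FPKM in Dox and 0.206 in Cont, and ESAM averaged 0.469 in Dox and 1.16 in Cont. In bulk RNA, fewer cells that make a transcript and less transcript per cell cannot be told apart.

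ANGPT2 mRNA was nearly absent without doxycycline and abundant with it. The gene lies on the minus strand of chromosome 8 at 6499651 to 6563409 (GRCh38, GENCODE release 29). Its FPKM was 70.6, 69.6 and 95.8 in Dox replicates 1 to 3, against 0.0298, 0.0369 and 0.0103 in Cont replicates 1 to 3. Every Dox library was above every Cont library by more than 3 orders of magnitude. The deposited values include a small offset. Without it ANGPT2 was at 0.0195, 0.0267 and 0.0 FPKM in Cont, so the value of Cont replicate 3 is the offset alone. From the steps between the lowest values of the table, the 3 Cont libraries held 3, 6 and 0 reads of ANGPT2, and the 3 Dox libraries about 18012, 12611 and 16272. The lowest Cont value was read as 0 reads because the other Cont values then came out whole, and because the value for 0 reads computed from the longest transcript, 5416 bases, equalled it (ratio 1.00). That length check is a weak one: it matched within 2% for 40.1% of 302 genes with such a lowest value. Scaled by depth, the pooled reads were 4829-fold higher in Dox (95% interval 2544 to 10560, from the exact Clopper-Pearson interval of the share of reads, which covers counting error only). Cont replicate 2 held 6 of the 9 Cont reads, and without it the ratio was 8687. The FPKM means, offset included, were 78.66 ± 14.9 in Dox and 0.02566 ± 0.0138 in Cont (SD, n = 3 each).

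On the log2(FPKM + 1) scale ANGPT2 was 6.26 higher in Dox (SE 0.124), place 4 from the top among 11526 tested genes. It passed the filter on low values through its Dox libraries alone. On that scale the value depends on the number added before the logarithm, and it was 9.28 with 0.1 added and 11.76 on the deposited log2 values. By rank within a library, ANGPT2 stood at place 1618, 1632 and 1197 of 13117 genes in Dox and at 12819, 12784 and 13069 in Cont. These places use the deposited values with the offset included, and in Cont replicate 3 the value is the offset alone. The gene lies inside MCPH1, a gene of the opposite strand that encodes a centrosome and DNA damage response protein. The annotations share 78 of the 6775 exonic bases of ANGPT2, and whether reads were counted by strand is not stated in the labels. MCPH1 itself was at 6.6, 6.59 and 6.16 FPKM in Dox and 3.31, 3.83 and 3.4 in Cont.

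VEGFA mRNA was lower in every Dox library. VEGFA lies on the plus strand of chromosome 6 at 43770184 to 43786487. It was at 5.4, 3.28 and 4.75 FPKM in Dox and at 27.9, 29.9 and 32.2 FPKM in Cont. The groups did not overlap, and Dox replicate 2 was the lowest library. The means were 4.479 ± 1.09 in Dox and 29.96 ± 2.15 in Cont (SD, n = 3 each), 6.69-fold lower in Dox, with a log2 difference of -2.52 (SE 0.139). This was place 182 from the bottom among tested genes. VEGFA has 32 annotated transcripts, and the table gives 1 value for all of them, so splice forms that differ in heparin binding could not be separated.

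VEGFB mRNA was lower in Dox by less. VEGFB lies on the plus strand of chromosome 11 at 64234538 to 64238793. It was at 10.1, 9.78 and 12.2 FPKM in Dox and at 18.2, 16.1 and 17.3 FPKM in Cont, again without overlap. The means were 10.72 ± 1.33 in Dox and 17.2 ± 1.04 in Cont (SD, n = 3 each), a ratio of 0.623 and a log2 difference of -0.64 (SE 0.0973). In TPM without mitochondrially encoded genes the difference shrank to -0.39, on a scale on which the median of all tested genes was at 0.193 rather than -0.0644.

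ANGPTL4 mRNA was also lower in Dox, with more spread. ANGPTL4 lies on the plus strand of chromosome 19 at 8363289 to 8374373. It was at 4.02, 5.67 and 4.09 FPKM in Dox and at 10.6, 18.2 and 19.3 FPKM in Cont. The groups did not overlap, but Cont replicate 1 lay well under the other Cont libraries. The means were 4.595 ± 0.935 in Dox and 16.04 ± 4.78 in Cont (SD, n = 3 each), 3.49-fold lower in Dox, with a log2 difference of -1.58 (SE 0.205), or -1.83 without Cont replicate 1. Of the members, then, 1 of 4 had all Dox values above all Cont values and 3 of 4 had all below. Among all tested genes these shares were 38.4% and 43.7%, together 82.1%. The members were chosen on this contrast, so nothing follows from the comparison.

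**Figure D1:**
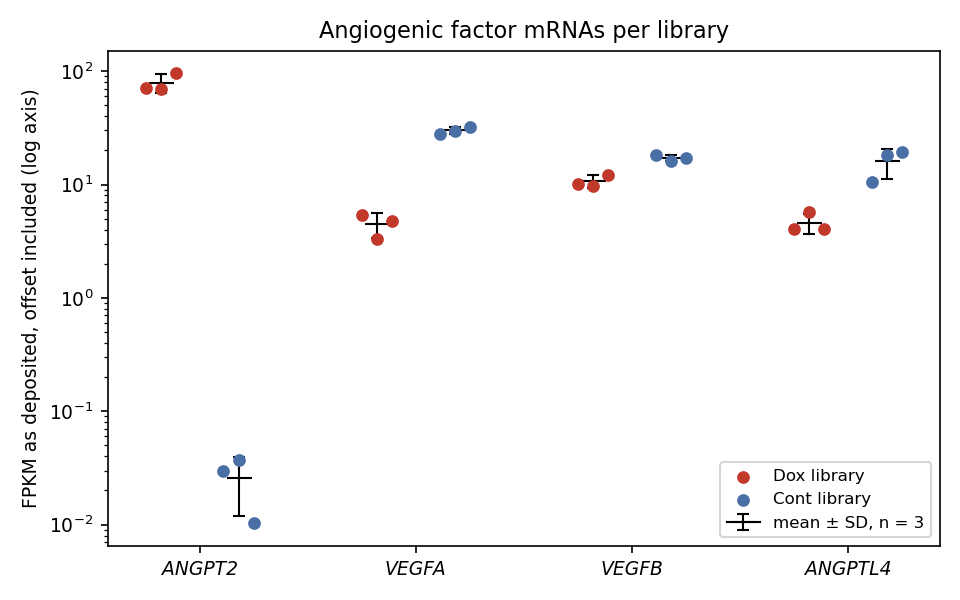
FPKM as deposited of the 4 measured angiogenic factors on a log axis, with 1 point per library (red Dox, blue Cont) and bars for mean ± SD (n = 3). ANGPT2 lies between 69.6 and 95.8 in Dox and at or under 0.0369 in Cont, while VEGFA, VEGFB and ANGPTL4 are lower in every Dox library than in any Cont library.

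The order of the 4 mRNAs by FPKM differed between the groups. FPKM is per length, but the length used for each gene is not known, so levels of different genes compare only roughly. For VEGFA the exons cover 14431 bases in all, and the longest coding transcript has 3535. In Dox the order was ANGPT2, VEGFB, then ANGPTL4 and VEGFA, whose values overlapped (4.02 to 5.67 and 3.28 to 5.4 FPKM). In Cont it was VEGFA, then VEGFB and ANGPTL4, whose values overlapped (16.1 to 18.2 and 10.6 to 19.3 FPKM), and ANGPT2 last. Summed over the 4 genes the FPKM was 98.4 ± 16.0 in Dox and 63.2 ± 6.18 in Cont (SD, n = 3 each). ANGPT2 made up 79.7% ± 1.99 of the sum in Dox and 0.0417% ± 0.0233 in Cont. The Cont share of ANGPT2 includes the offset, which is its whole value in Cont replicate 3. VEGFA made up 4.59% ± 1.23 in Dox and 47.5% ± 1.51 in Cont.

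**Figure D2:**
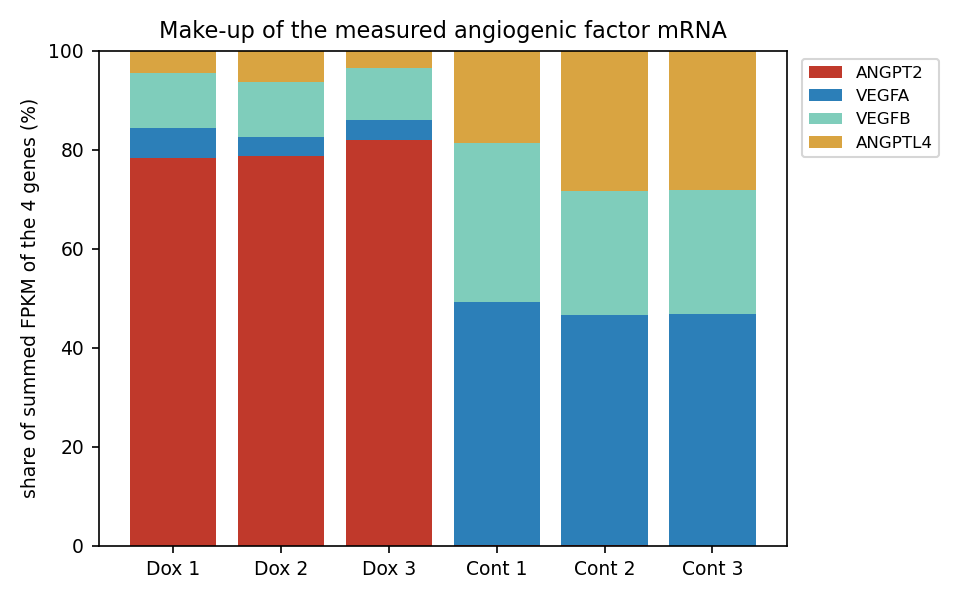
Share of the summed FPKM of the 4 genes (offset included) held by each gene, in percent, 1 bar per library with Dox left and Cont right. ANGPT2 fills 78.3% to 82.0% of the Dox bars and at most 0.0575% of the Cont bars, in which VEGFA holds 46.5% to 49.2%.

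Ratios of genes within a library do not depend on how libraries are scaled to each other, but their size depends on the gene lengths used. The ratio of VEGFB to VEGFA was 1.87, 2.98 and 2.58 in Dox and 0.652, 0.539 and 0.539 in Cont, so VEGFB had the higher FPKM in every Dox library and in no Cont library. The ratio of ANGPT2 to VEGFA, offset included, was 13.1, 21.2 and 20.2 in Dox and at most 0.00124 in Cont. The ratio of ANGPTL4 to VEGFA was 0.744, 1.73 and 0.86 in Dox and 0.379, 0.611 and 0.601 in Cont, with no overlap but a spread in Dox (SD 0.538) nearly as large as the gap between the means, 1.11 and 0.53. VEGFA and VEGFB together were at 15.2 ± 1.99 FPKM in Dox and 47.2 ± 2.03 in Cont (SD, n = 3 each). By rank among 13117 genes, VEGFA stood at 8522 to 9680 in Dox and 3453 to 3924 in Cont, VEGFB at 6131 to 6813 in Dox and 5141 to 5481 in Cont, and ANGPTL4 at 8425 to 9243 in Dox and 4908 to 6675 in Cont.

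The promoters of VEGFB and ANGPTL4, of which both mRNAs were lower in Dox, are shown because FOXO factors act through a known DNA motif. RefSeq windows of 300 bases matched these 2 of the 4 measured genes. Each runs from 250 bases before to 50 after the RefSeq start (GRCh38.p14, plus strand, 5′ to 3′), VEGFB at chr11:64234334-64234633 and ANGPTL4 at chr19:8363905-8364204. GENCODE puts the 5′ end of both genes upstream of that start. Capitals mark every match to GTAAACA (FOXO), ACGTG (the core of the hypoxia response element), TGANTCA (AP-1) or GGGCGG (GC box) on either strand.
VEGFB: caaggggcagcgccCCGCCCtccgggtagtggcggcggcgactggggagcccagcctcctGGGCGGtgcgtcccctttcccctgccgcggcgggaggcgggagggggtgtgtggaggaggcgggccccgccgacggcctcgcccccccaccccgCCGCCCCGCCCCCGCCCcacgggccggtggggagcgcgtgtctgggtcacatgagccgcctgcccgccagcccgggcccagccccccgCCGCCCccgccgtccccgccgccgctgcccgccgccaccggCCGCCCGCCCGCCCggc
ANGPTL4: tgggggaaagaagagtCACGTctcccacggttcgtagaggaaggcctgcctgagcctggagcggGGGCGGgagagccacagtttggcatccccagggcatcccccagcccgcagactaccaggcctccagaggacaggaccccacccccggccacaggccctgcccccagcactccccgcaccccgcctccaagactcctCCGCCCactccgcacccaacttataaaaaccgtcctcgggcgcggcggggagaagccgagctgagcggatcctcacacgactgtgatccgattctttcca
Neither window held GTAAACA, which occurred in 3.42% of 35116 promoter windows of the same length, nor TGANTCA (7.71%). ANGPTL4 held 1 ACGTG on the opposite strand, 234 bases before the start (21.4% of all windows held it), and 2 GC boxes (45.0%). VEGFB held 9 GC boxes, some of them overlapping each other, in a window of 84.7% G and C, above 99.7% of all windows. ANGPTL4 was at 66.3% and the median window at 58.7%. A match is a description of letters and not of binding, and a missing match says nothing of sites elsewhere.

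The genes nearest to each member in profile were taken by Euclidean distance over the 6 libraries, on log2(FPKM + 1) centred on each gene's mean. For ANGPT2 they were MOBP (distance 0.481), a myelin gene at 82.8 ± 7.59 FPKM in Dox and with 0 reads in each of the Cont libraries, CALCRL (0.584), a receptor for adrenomedullin, and IGFBP1 (0.681), a secreted binding protein of insulin-like growth factors and a known FOXO target. CALCRL was at 167 ± 14.0 FPKM in Dox and 1.13 ± 0.25 in Cont (SD, n = 3 each). For VEGFA they were SQOR (0.205), KRT18 (0.239) and NEK2 (0.313), for VEGFB PRKCI (0.0626), PHF13 (0.0834) and VANGL1 (0.102), and for ANGPTL4 FAM72A (0.468), C21orf58 (0.509) and RIPPLY2 (0.509). No member was among the 3 nearest genes of another member. With 80.4% of tested genes called different between the groups, such profiles share a step between the 2 groups, and the distances describe these 6 libraries only.

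The other genes of these pathways came from 14 lists with 162 genes, chosen with earlier results of these data known. Of these, 124 were in the table and 111 passed the filter on low values. By limma with a Benjamini-Hochberg adjusted p under 0.05, 44 rose (39.6%) and 50 fell (45.0%), near the shares of all tested genes, 37.6% higher and 42.8% lower. Their median log2 difference was -0.16, against -0.064 for all tested genes. Of the 111, 8 reached the minimum of the filter in the libraries of 1 group alone (5 in Dox, 3 in Cont) and so had to differ, which their p-values do not take into account.

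Of the listed receptors and co-receptors of the VEGF family 1 rose and 2 fell, and of the listed ligands, PGF and ANGPT1, neither passed the test. The receptor of VEGFC, FLT4 (VEGFR3), rose and remained low: it was at 1.31, 1.35 and 1.48 FPKM in Dox and 0.0639, 0.0425 and 0.0957 in Cont (log2 difference 1.16, SE 0.112, limma adjusted p = 5.98e-06). It passed the filter on low values through its Dox libraries alone. The co-receptor NRP1 fell, at 32.5, 32.5 and 41.3 FPKM in Dox and 113, 113 and 119 in Cont (log2 difference -1.68, SE 0.0955, limma adjusted p = 1.32e-07). NRP2, which also serves VEGFC, fell by less, at 5.42 ± 0.658 FPKM in Dox and 10.4 ± 2.79 in Cont (SD, n = 3 each; limma adjusted p = 0.000917). NRP1 was the most abundant of the 3 listed receptors in both groups. FLT1, KDR, TEK and TIE1 were not analysed here.

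ANGPT1, the ligand that activates TIE2, did not pass the test, at 3.99, 5.32 and 4.67 FPKM in Dox and 3.96, 4.95 and 3.61 in Cont (log2 difference 0.13, SE 0.128, limma adjusted p = 0.357). In TPM without mitochondrially encoded genes it was 0.39 higher (limma adjusted p = 0.0231). The ANGPT2 level was under the ANGPT1 level in every Cont library and above it in every Dox library. PGF, placenta growth factor, a ligand of FLT1, was at 2.37, 1.82 and 2.95 FPKM in Dox and 2.66, 2.2 and 3.79 in Cont (limma adjusted p = 0.314), and passed only under quantile normalization (log2 difference -0.44, limma adjusted p = 0.0476). ANGPTL1 was at or under 0.233 FPKM in all 6 libraries and was not tested.

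**Figure D3:**
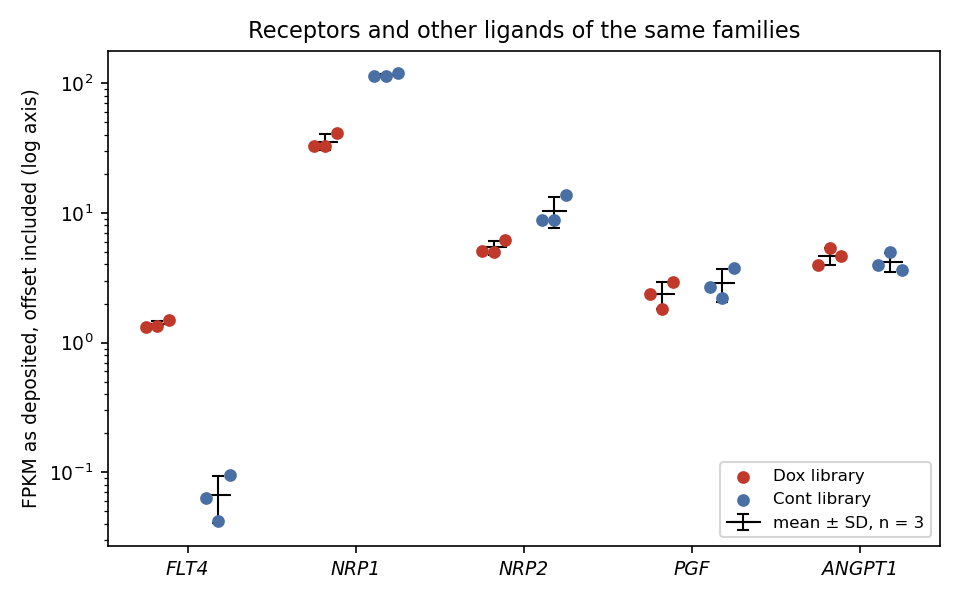
FPKM as deposited of the listed VEGF receptors and co-receptors and of PGF and ANGPT1, on a log axis, with 1 point per library (red Dox, blue Cont) and bars for mean ± SD (n = 3). FLT4 is above 1 only in Dox, NRP1 and NRP2 are lower in Dox, and the values of PGF and of ANGPT1 overlap between the groups.

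Of 9 tested enzymes that process VEGFC or free VEGFA from the matrix, 3 rose and 3 fell (median log2 difference -0.0741), with 5 rises in TPM without mitochondrially encoded genes. All are proteases except heparanase. Over all tested genes 37.6% rose and 42.8% fell. FURIN, a convertase of VEGFC, rose to 47.0 ± 2.5 FPKM in Dox, against 18.1 ± 0.507 in Cont (log2 difference 1.33, limma adjusted p = 8.17e-08). HPSE, heparanase, rose by 0.53. PLAU, the urokinase gene, fell to 45.6 ± 1.48 FPKM in Dox, against 655 ± 34.0 in Cont (SD, n = 3 each; log2 difference -3.81, limma adjusted p = 2.84e-10). ADAMTS1, a protease that also binds VEGFA, fell by 1.65.

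Among 25 tested other pro-angiogenic factors, 13 rose and 8 fell (median 0.36). Of all tested genes 37.6% rose and 42.8% fell (median -0.064), and no test set this list against other genes. The largest rise was that of ESM1 (endocan), a secreted proteoglycan known as a marker of endothelial tip cells, at 2.26, 1.71 and 2.98 FPKM in Dox and with 0 reads in every Cont library, at least 54.0-fold higher against 3 reads per Cont library. The Notch ligand gene DLL4 followed, at 3.28, 3.05 and 1.24 FPKM in Dox and 0.185, 0.0387 and 0.0592 in Cont (log2 difference 1.63, limma adjusted p = 8.23e-05). Both were low. They and ANG, another of the 13 that rose, passed the filter on low values through their Dox libraries alone. The largest falls on the log2(FPKM + 1) scale were those of the osteopontin gene SPP1, at 106 ± 23.2 FPKM in Dox and 885 ± 28.3 in Cont (log2 difference -3.07), and of FGF2, at 4.0 ± 0.241 in Dox and 25.4 ± 1.87 in Cont (SD, n = 3 each; log2 difference -2.40). As a ratio of mean FPKM the fall of APLN was larger: this gene of the vessel-forming peptide apelin was at 0.184 ± 0.133 FPKM in Dox and 3.59 ± 0.174 in Cont (SD, n = 3 each), 19.5-fold lower in Dox against 8.36-fold for SPP1. APLN passed the filter on low values through its Cont libraries alone.

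Secreted inhibitors of angiogenesis also split, with 5 of 12 tested genes higher and 6 lower (median -0.41). These shares are near those of all tested genes, 37.6% higher and 42.8% lower. The thrombospondin genes THBS1 and THBS2 had the largest falls, with log2 differences of -3.54 and -1.93 (limma adjusted p = 1.67e-09 and 3.47e-09). The semaphorins SEMA3B and SEMA3E, ligands of neuropilins and plexins, had the largest rises, 2.06 and 1.43 (limma adjusted p = 1.66e-06 and 6.11e-07). SEMA3B was at 16.8 ± 3.62 FPKM in Dox and 3.25 ± 0.672 in Cont (SD, n = 3 each).

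**Figure D4:**
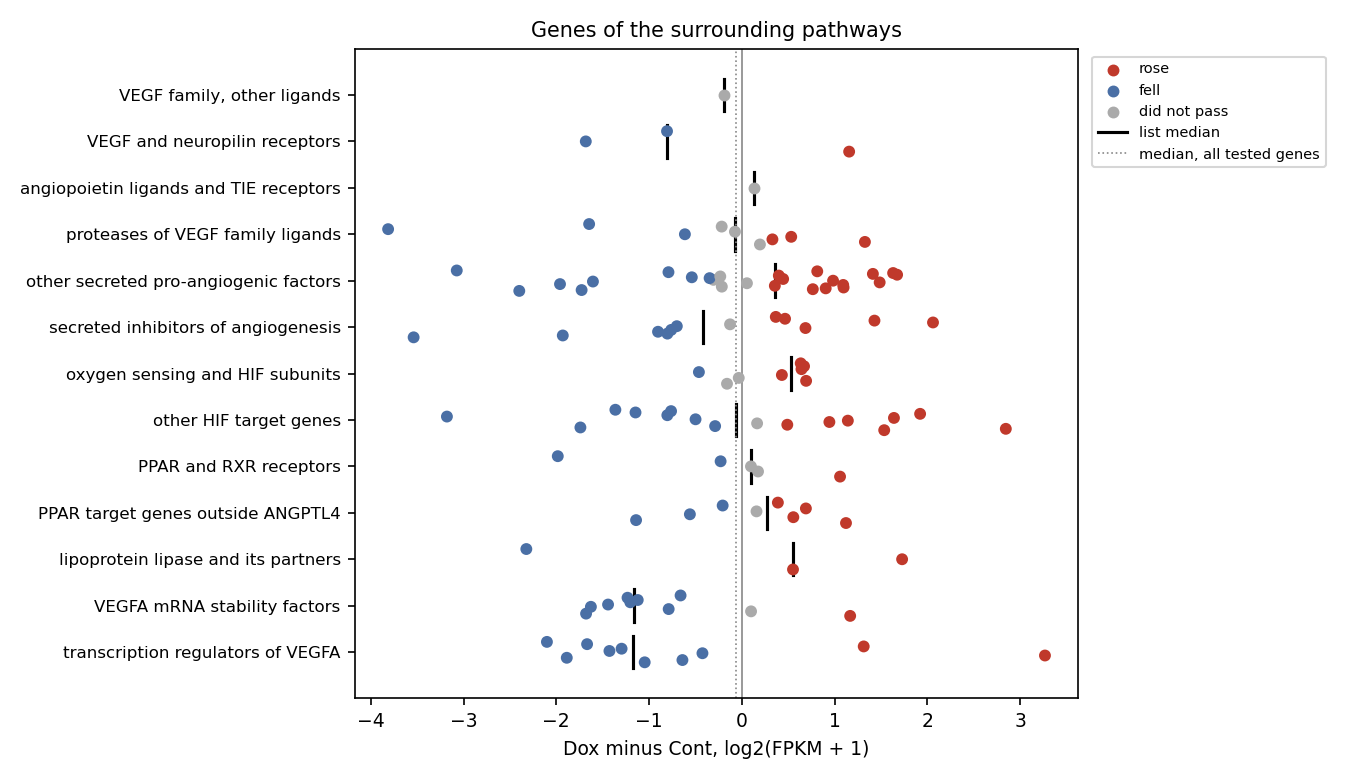
Difference in log2(FPKM + 1) between Dox and Cont (positive where Dox is higher) for each tested gene of the surrounding pathways, by list. Colours give the call at a limma adjusted p under 0.05, black bars are list medians and the dotted line is the median of all tested genes (-0.064). Most lists hold genes on both sides of 0, while 8 of 10 genes fell in each of the 2 lists of VEGFA regulators. Over all tested genes 42.8% fell. The lists were chosen with earlier results of these data known, and none was tested against other genes.

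VEGFA and ANGPTL4 are textbook targets of the hypoxia-inducible factors, so that axis is given beside them. HIF1A, the oxygen-regulated subunit, was at 569, 583 and 623 FPKM in Dox and 626, 660 and 696 in Cont and did not pass (log2 difference -0.16, limma adjusted p = 0.0633), with a sign that turned under quantile normalization (0.32, limma adjusted p = 0.00267) and a call without Dox replicate 3 (-0.2, limma adjusted p = 0.0311). EPAS1, which encodes HIF2A, rose by 0.69, and the partner genes were split: ARNT2 rose by 0.43, while ARNT was at 15.0 ± 1.74 FPKM in Dox and 15.4 ± 1.37 in Cont (SD, n = 3 each; limma adjusted p = 0.771). The prolyl hydroxylase genes EGLN1 and EGLN2 and the asparaginyl hydroxylase gene HIF1AN, all inhibitors of HIF, rose by 0.64, 0.67 and 0.63. VHL, the ligase subunit that removes HIF, fell by 0.46. EGLN3 was at 1.82, 1.46 and 0.657 FPKM in Dox and at most 0.0533 in Cont and was not tested.

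Other HIF targets split: 7 of 16 tested genes rose and 8 fell (median -0.0615), beside 37.6% and 42.8% of all tested genes. PDK1, a mitochondrial kinase that inhibits pyruvate dehydrogenase, rose to 267 ± 11.7 FPKM in Dox, against 36.6 ± 6.56 in Cont (log2 difference 2.85, limma adjusted p = 1.45e-08), and the MYC antagonist gene MXI1 rose by 1.92. The glycolysis regulator gene PFKFB3 fell to 23.2 ± 1.81 FPKM in Dox, against 218 ± 12.8 in Cont (SD, n = 3 each; log2 difference -3.18, limma adjusted p = 1.37e-09), and the glucose carrier gene SLC2A1 fell by 1.74.

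Of the receptors that induce ANGPTL4, PPARA rose to 115 ± 3.38 FPKM in Dox, against 54.5 ± 3.79 in Cont (SD, n = 3 each; log2 difference 1.06, limma adjusted p = 3.92e-07). PPARD and PPARG differed by 0.17 and 0.10 and did not pass (limma adjusted p = 0.0788 and 0.295), but both passed in TPM (0.29 and 0.21 higher), in TPM without mitochondrially encoded genes (0.45 and 0.37) and under quantile normalization (0.26 and 0.21), and PPARD also with median-of-ratios scaling (0.24) and without Dox replicate 1 (0.24). RXRA, their common partner, fell by 0.23 (limma adjusted p = 0.0409), a call lost with each of the other scalings (-0.13 in TPM, -0.16 by median of ratios, -0.18 by quantiles) and turned to 0.03 in TPM without mitochondrially encoded genes. That call was also lost without Cont replicate 1 (-0.2), Cont replicate 2 (-0.23), Dox replicate 1 (-0.16) or Dox replicate 2 (-0.22). The coactivator gene PPARGC1B fell to 1.09 ± 0.148 FPKM in Dox, against 7.25 ± 0.363 in Cont (SD, n = 3 each). Of 8 other PPAR targets, 4 rose and 3 fell (median 0.27), beside 37.6% and 42.8% of all tested genes. PDK4 (1.12) and SLC25A20 (0.69) had the largest rises, and PLIN2 (-1.14) and ACADVL (-0.56) the largest falls. ANGPTL4 was lower in Dox, as were PPARGC1B and those 3 PPAR targets (HADHA by 0.21), while PPARA and 4 PPAR targets were higher. The split of the targets depended on scaling. It was 5 rises and 2 falls in TPM with or without mitochondrially encoded genes, by median of ratios and by quantiles.

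ANGPTL4 acts on lipoprotein lipase, and 4 of 9 genes of that enzyme, its relatives and its partners were listed. LMF1 and SEL1L, which help lipases mature in the endoplasmic reticulum, rose by 0.55 and 1.73, the LMF1 call being lost under quantile normalization (0.24, limma adjusted p = 0.179). The hepatic lipase gene LIPC fell to 0.104, 0.081 and 0.0257 FPKM in Dox, against 4.72, 5.43 and 3.17 in Cont (log2 difference -2.32, limma adjusted p = 4.81e-07), and passed the filter through its Cont libraries alone.

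Known regulators of VEGFA itself were mostly lower. Of 10 factors that bind or process VEGFA mRNA or act on AU-rich mRNAs, 8 fell and 1 rose (median -1.16), with 2 rises in TPM without mitochondrially encoded genes. ZFP36 (tristetraprolin), which destabilizes VEGFA mRNA, rose to 11.0 ± 2.24 FPKM in Dox, against 4.33 ± 0.694 in Cont (SD, n = 3 each; log2 difference 1.17, limma adjusted p = 3.52e-05). Its relative ZFP36L1, which also acts on AU-rich mRNAs, had the higher FPKM in both groups and fell by 1.68. ZFP36L1 was at 24.9 ± 2.92 FPKM in Dox and 81.8 ± 8.42 in Cont (SD, n = 3 each). HNRNPL, which stabilizes VEGFA mRNA in hypoxia, fell by 1.63. Of 10 transcription regulators, 8 fell and 2 rose (median -1.17). E2F1 and TFAP2A had the largest falls (-2.10 and -1.89), and EGR1 and ETS2 rose by 3.27 and 1.31, EGR1 to 50.8 ± 1.61 FPKM in Dox, against 4.42 ± 0.813 in Cont (SD, n = 3 each). Over all tested genes 42.8% fell, and no test set these lists against other genes. The part of these regulators in the VEGFA level was not tested.

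Markers of other cell types were checked beside these results. Of 6 tested stellate cell and fibroblast markers, 2 rose and 3 fell, with COL3A1 at 142 ± 15.6 FPKM in Dox and 5.93 ± 0.919 in Cont and COL1A2 at 44.5 ± 8.32 in Dox and 202 ± 13.9 in Cont (SD, n = 3 each). Their summed FPKM was 1530 to 1840 in Dox and 1220 to 1560 in Cont, most of it RGS5, a pericyte gene that did not pass the test (1310 to 1660 in Dox and 977 to 1340 in Cont, limma adjusted p = 0.051). Besides these, ACTA2 rose by 0.49, which was lost under quantile normalization (0.17, limma adjusted p = 0.342), and COL1A1 fell by 1.69. Of 8 immune markers 2 were listed, with a summed FPKM of 2.8 to 3.39 in Dox and 1.79 to 2.44 in Cont, and PTPRC was not analysed here. Of 5 tested epithelial and mesenchymal markers, 4 fell, among them KRT18 (-2.43) and VIM (-1.64), and FN1 rose (1.88), beside 42.8% of all tested genes lower and 37.6% higher. The part of these marker changes in the results was not tested.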

How the data were processed

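The authors deposited 1 table of log2 FPKM for 13117 genes and 6 libraries. Per the labels' protocols, poly(A) RNA was captured from total RNA and copied to cDNA. FastQC 0.11.7 and GRCh38 are named in the submitters' processing notes. The aligner, counter, annotation and strand setting are not given in the sources used here. The description of the library titled Cont1 names another column, so columns were matched by title. The values of those columns differ.

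FPKM was taken as 2 to the power of the deposited value. Differences are Dox minus Cont on log2(FPKM + 1), which understates low genes, for the 11526 genes that reached FPKM 1 in 3 or more libraries, fitted with limma 3.58.1 in R 4.3.3 (trend, Benjamini-Hochberg). The fit was also run on simulated data in which few genes changed. Here 80.4% of tested genes were called, so that run does not bear on these calls. Read depth was not given. In 307 genes the lowest value was shared by at least 2 libraries and taken as 0 reads, and all values tested above it lay within 0.05 reads of a whole number. The added offset equalled 1.58 to 2.62 reads, depending on the library, and relative depth ran from 0.872 to 1.31 in Dox and from 0.79 to 1.16 in Cont. If the length used for each gene was that of its longest coding transcript, the least covered VEGFA, VEGFB and ANGPTL4 libraries held roughly 390, 450 and 240 reads. The length used is not known, so these 3 counts are uncertain.

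The members, lists and tests were chosen with earlier results of these data known. Named genes were the members, all genes of the family, receptor, HIF and PPAR lists, up to 2 largest rises and 2 largest falls of each other list, and the 3 nearest profiles of each member. MCPH1, FOXO1, ALB, AFP, FGA, PECAM1, CDH5, ESAM, ANG, APLN, HADHA and RGS5 were added after their values were seen. The labels do not name separate cultures, so p-values reflect only the variation among these samples, possibly technical.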

Additional observations from a re-analysis of the deposited data

How the results depend on the processing

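The 4 members kept their direction in every setting that was run. Values that moved by more than 1 SD between replicates were those of ANGPT2 with 0.1 added before the logarithm (9.28), on the deposited log2 values (11.76), in TPM (6.97) and in TPM without mitochondrially encoded genes (7.18), of VEGFA with 0.1 added (-2.74) and on the deposited values (-2.77), and of VEGFB in TPM without mitochondrially encoded genes (-0.39). Leaving out each library in turn gave 6.11 to 6.34 for ANGPT2, -2.64 to -2.35 for VEGFA, -0.73 to -0.58 for VEGFB and -1.83 to -1.43 for ANGPTL4. The ratio of pooled ANGPT2 reads, a setting added after seeing the data, ran from 3255 without Cont replicate 3 to 8687 without Cont replicate 2. With each library left out in turn, the limma fit gave 8811 to 9266 calls over all genes (4098 to 4321 higher, 4676 to 4945 lower) and 91 to 97 among the pathway genes (42 to 45 higher, 48 to 54 lower). Higher genes made up 46.7% of calls as reported and 59% in TPM without mitochondrially encoded genes. Sign changes of named genes were counted only where the gene was called as reported or in the other setting. On that count the sign turned for 2, RXRA (0.03 in TPM without mitochondrially encoded genes) and HIF1A (0.32 under quantile normalization). The cause was not tested. With a filter at FPKM 5, which tests fewer genes, 8 pro-angiogenic factors and 3 inhibitors rose. Same-numbered libraries did not deviate together (r = 0.0371, -0.00483 and 0.0793), so the numbers were not taken as pairs. With the replicate number as a block there were 9272 calls, and of the named genes RXRA lost its call (limma adjusted p = 0.0621). Depth limits ANGPT2 in Cont, where 9 reads in all fix its level.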
